A study of Mus musculus with 30 samples.

Results

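Actn3, Ankrd23 and Tnni1 are 3 genes of the striated muscle sarcomere. Each was measured by a single 60-base oligonucleotide probe on 30 two-colour Agilent arrays, which held 2 arrays for each of 15 tissues of adult mice. The genes were chosen from earlier results of these arrays, in which Actn3 and Ankrd23 stood out in bone and skeletal muscle, Actn3 was low in heart, and Tnni1 differed between the small and the large intestine. These values are therefore given as a description, with no test, and tests are given only for other tissues and contrasts. The probes of the 3 genes were 3 of 25030 probes in the authors' table of non-redundant genes and were among the 21019 probes kept for testing. Gene symbols were paired with probes through the study's supplementary probe lists, which named 5049 of the probes kept.

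The tissues came from untreated males of the C57BL/6 strain, for which the labels give an age of 28 weeks. They were skeletal muscle, heart, bone, skin and fat, the brain cortex and cerebellum, the eyes, the liver, kidney, lung and bladder, and the stomach with the small and large intestine. On every array Cy3 carried the tissue RNA and Cy5 carried a common reference, a pool of RNA from 11 mouse cell lines, among them a line of muscle myoblasts, mixed with RNA of embryonic stem (ES) cells. Dyes were not exchanged, so a dye effect of a probe is part of every ratio of tissue to reference but is shared by all tissues. The 2 arrays of a tissue came from different animals, except that the design text gives bone and fat only 1 replication while the labels list 2 arrays of each. What the spread within bone and within fat covers is therefore uncertain. The median Cy3 signal of an array ranged from 85.7 to 175 scanner units, and between 53.9% and 76.8% of its probes were well above background in Cy3. Pieces of whole organs were homogenised, so more muscle cells in a sample and more RNA per muscle cell cannot be told apart.

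The sarcomere is the contractile unit of striated muscle, in which thin actin filaments anchored at the Z disc slide along thick myosin filaments. Actn3 encodes alpha-actinin-3, which cross-links actin filaments at the Z disc of fast, glycolytic skeletal muscle fibres and is not used by the heart. Ankrd23 encodes an ankyrin repeat protein of skeletal and cardiac muscle that binds titin, the elastic filament of the sarcomere, and responds to stretch and metabolic stress. Tnni1 encodes the slow skeletal troponin I, the inhibitory subunit of the calcium switch on the thin filament, which is made in slow fibres and in the heart before birth, where cardiac troponin I later takes its place.

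The probe sequences define what was measured, since 1 probe stands for each gene and no other probe of these genes was used here. The first 30 bases of each, in the order the array files list them, were as follows.
Actn3 probe Z00052253-1: gagagagtgacctctgacattctccgtgga
Ankrd23 probe Z00070220-1: gaaatgaggacacttagctgacacacaaag
Tnni1 probe Z00020012-1: tctcagcagccccgtgttgcttccctccat
The full probes had a GC content of 55% for Actn3, 36.7% for Ankrd23 and 51.7% for Tnni1. Each probe had 1 spot per array, so no repeat spot checks it. Whether the array held other probes of these genes was not determined, since the probe lists name only part of it. Every spot of the 3 probes was well above background on all 30 arrays in both channels, and no spot was saturated.

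Ankrd23 and Tnni1 were both high in bone but parted in heart and large intestine, and Tnni1 differed between the 2 muscle arrays. The 250 bases before 1 annotated start of each gene are shown for comparison. Of the 2 windows listed for each gene, only 1 was searched. The sequences are from RefSeq (GRCm38.p6), at chr1:36536557-36536806 on the minus strand for Ankrd23 and at chr1:135799171-135799420 on the plus strand for Tnni1. Capitals mark CAGCTG, a form of the E-box that myogenic factors such as MyoD and myogenin bind.
Ankrd23: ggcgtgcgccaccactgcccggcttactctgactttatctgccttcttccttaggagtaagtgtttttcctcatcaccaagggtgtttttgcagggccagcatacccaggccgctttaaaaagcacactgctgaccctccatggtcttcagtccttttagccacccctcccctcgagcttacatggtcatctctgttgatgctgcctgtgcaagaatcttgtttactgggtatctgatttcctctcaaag
Tnni1: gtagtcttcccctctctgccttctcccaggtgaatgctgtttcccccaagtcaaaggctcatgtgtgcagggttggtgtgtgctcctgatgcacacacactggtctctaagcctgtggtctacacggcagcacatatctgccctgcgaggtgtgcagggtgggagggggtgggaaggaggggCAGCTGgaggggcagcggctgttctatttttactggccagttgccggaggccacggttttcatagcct
The Tnni1 window held 1 CAGCTG and the Ankrd23 window held none. Of 27025 mouse promoter windows of the same length, 12.7% held CAGCTG. The looser E-box CANNTG, which includes CAGCTG, was found 4 times in Tnni1 and not in Ankrd23, and 66.1% of all windows held it. The binding motif of the muscle factor MEF2 was in neither window and in 3.03% of all windows. All these motifs read the same on both strands. These matches describe letters in a window and no binding was measured.

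Levels are given as log2(Cy3/Cy5), the tissue over the common reference, after background correction and loess normalisation within each array. A positive value means more signal in the tissue than in the reference, and values of different probes were not compared as levels. Over the 15 tissue means, Actn3 spanned 8.78 on the log2 scale (439-fold), Ankrd23 7.52 (183-fold) and Tnni1 6.04 (65.8-fold). Tissue specificity was expressed as the information measure, the highest possible Shannon entropy over 15 tissues minus the entropy of the tissue shares of a gene, computed on the linear ratio, so that 0 bits is an even spread and 3.91 bits is a gene in 1 tissue. It was 2.13 bits for Actn3, 1.67 bits for Ankrd23 and 1.25 bits for Tnni1, against a median of 0.159 bits over all probes kept. In the same order, 98.6%, 96.5% and 92.9% of the probes kept had a lower value.

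**Figure D1:**
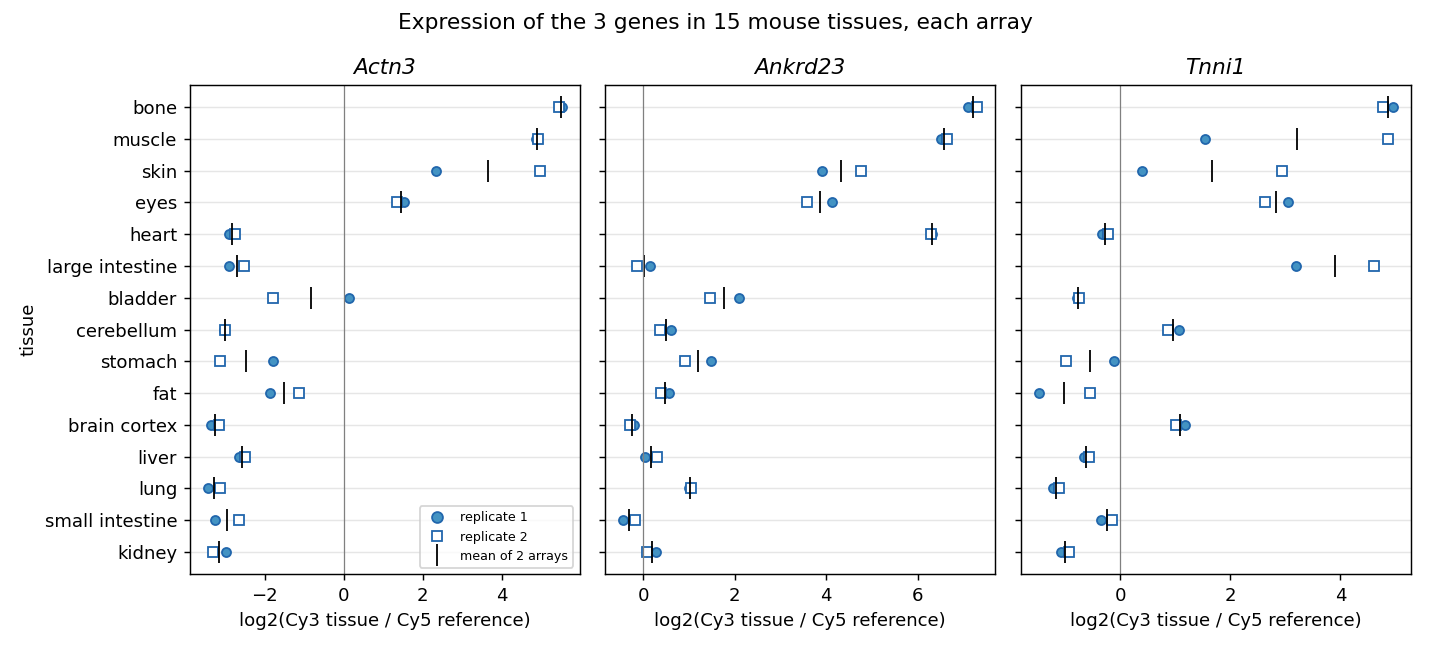
Each point is 1 array, plotted by its log2 ratio of tissue to common reference on the horizontal axis for the 15 tissues on the vertical axis, and the bar is the mean of the 2 arrays. Bone and muscle lead for Actn3 and Ankrd23, the heart arrays lie between 6.29 and 6.32 for Ankrd23 but between -2.90 and -2.76 for Actn3, and the 2 muscle arrays are far apart for Tnni1 alone.

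Actn3 was high in bone, skeletal muscle and skin, lower in eyes and near its lowest in heart, brain and most internal organs. Its log2 ratio was 5.52 and 5.46 on the bone arrays and 4.87 and 4.92 on the muscle arrays. It was 2.33 and 4.98 on the skin arrays, so that skin replicate 2 reached the muscle arrays and skin replicate 1 did not. The eyes followed with 1.52 and 1.36, and no array of another tissue lay between skin and eyes or overlapped the eyes. Bladder gave 0.14 and -1.79, a spread between 2 arrays that reached into the range of fat, at -1.87 and -1.13. The heart arrays gave -2.90 and -2.76, inside the range of liver, kidney and brain. From bladder downwards each tissue overlapped the next one in the order fat, stomach, liver, large intestine, heart, small intestine, cerebellum, kidney, brain cortex and lung. The lowest mean, in lung, was -3.29 ± 0.22 (SD, n = 2) and the mean of brain cortex was -3.26 ± 0.14 (SD, n = 2).

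Ankrd23 was high in both kinds of striated muscle, unlike Actn3 by its values in heart. Its log2 ratio was 7.11 and 7.30 in bone, 6.51 and 6.65 in muscle, and 6.32 and 6.29 in heart. These 3 tissues did not overlap each other, although the step from muscle to heart was only 0.27. Skin gave 3.90 and 4.76 and overlapped the eyes, at 4.12 and 3.59. A lower tier held bladder at 2.08 and 1.46, stomach at 1.47 and 0.92 and lung at 0.99 and 1.04, each overlapping the next. The other 7 tissues had means from -0.31 ± 0.19 in small intestine to 0.49 ± 0.18 in cerebellum (SD, n = 2).

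Tnni1 was high in bone and large intestine, variable in muscle and low in heart. Its log2 ratio was 4.95 and 4.78 in bone and 3.19 and 4.62 in large intestine. The muscle arrays gave 1.54 and 4.86, so replicate 2 matched bone and replicate 1 was closer to brain cortex. Eyes gave 3.04 and 2.62 and skin 0.40 and 2.95. From large intestine down to cerebellum each tissue overlapped the next. Brain cortex, at 1.09 ± 0.12, and cerebellum, at 0.96 ± 0.13 (SD, n = 2), stood above all remaining tissues and did not overlap small intestine, the next in order. The small intestine arrays, at -0.35 and -0.15, overlapped the heart arrays, at -0.34 and -0.23. Stomach was at -0.56 ± 0.61, liver at -0.62 ± 0.07, bladder at -0.77 ± 0.02, kidney at -1.01 ± 0.11, fat at -1.03 ± 0.66 and lung at -1.17 ± 0.08 (SD, n = 2).

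The order of bone and muscle differed between scales, and the signal of the reference channel differed between tissues. Cy5 held the same RNA on every array, and on the 24 arrays of the 12 tissues other than muscle, bone and skin the Actn3 spot gave a Cy5 mean signal between 2783 and 4245 scanner units. On the muscle arrays the same spot gave 15158 and 20529 in Cy5, and on the bone arrays 14616 and 9210. These Cy5 signals were 3.97 and 5.37 times the median of all arrays in muscle and 3.83 and 2.41 times in bone. The Cy3 signals of that spot were 245082 and 266490 in muscle and 110268 and 108785 in bone. The excess of Cy5 over its median amounted to 4.63% and 6.27% of the Cy3 signal in muscle and to 9.79% and 4.95% in bone. Skin replicate 2, with a Cy3 signal of 42785, gave 8396 in Cy5, and skin replicate 1, with 4213 in Cy3, gave 4579.

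Both other genes had the same arrangement at a smaller size. The Ankrd23 spot gave 2767 and 3800 in Cy5 on the muscle arrays, 2526 and 2195 on bone and 2411 and 2653 on heart, where its Cy3 signal was 45468 and 41913. No array with an Ankrd23 Cy3 signal under 20000 exceeded 1857 in Cy5. The Tnni1 spot gave 1729 in Cy5 on muscle replicate 2, where Cy3 was 16605, and 666 on muscle replicate 1, where Cy3 was 733. Large intestine replicate 2, with 8500 in Cy3, gave 1351. Over all probes kept, the share with a processed Cy5 signal at least 2-fold above the median of the arrays of other tissues was 1.82% in muscle and 1.56% in bone, and ranged up to 17.9% in cerebellum. Among probes with a mean Cy3 signal above 20000 in the tissue the share was 19.6% of 537 in muscle and 22.5% of 244 in bone, and in each of the 15 tissues it was higher than over all probes. The cause of the higher Cy5 signals was not tested.

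**Figure D2:**
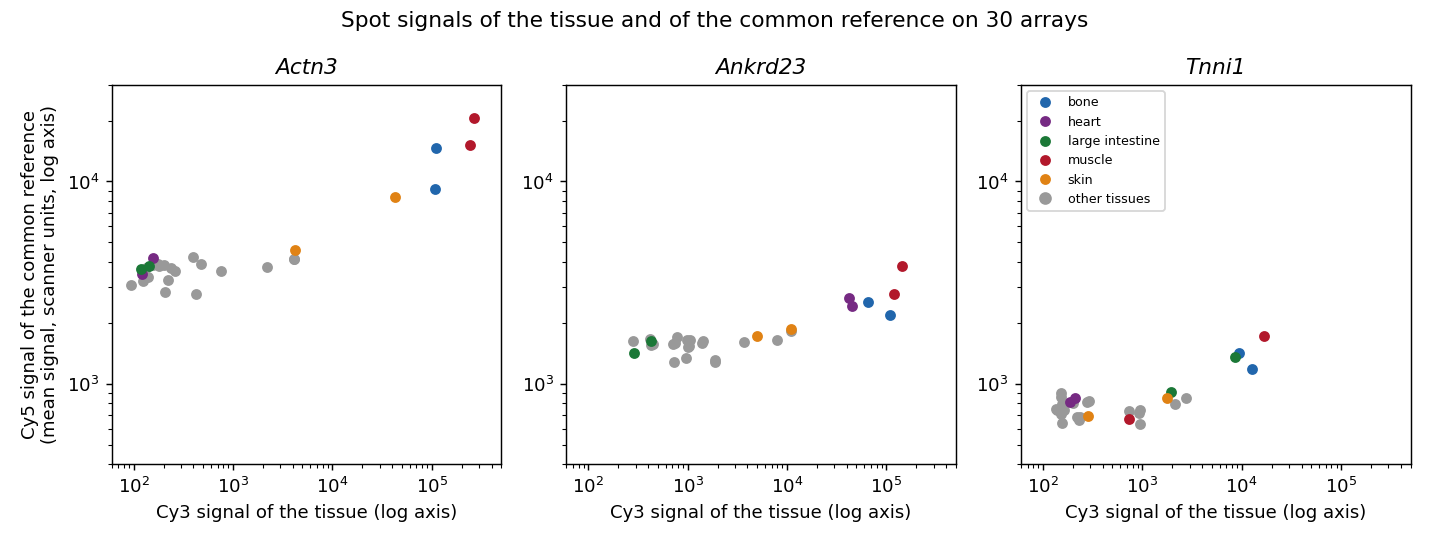
Each point is 1 array, with the Cy3 mean signal of the tissue on the horizontal axis and the Cy5 mean signal of the common reference on the vertical axis, both in scanner units on log axes. For Actn3 the Cy5 signal stays between 2783 and 4245 on the arrays of 12 tissues and reaches 20529 on a muscle array, where Cy3 is highest.

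When Cy3 was used alone, as log2 of the processed signal over the 75th percentile of its array, muscle lay above bone for Actn3. The Cy3 level of Actn3 was 8.78 and 9.05 in muscle and 8.43 and 8.24 in bone, and the arrays did not overlap. For Ankrd23 it was 7.67 and 8.13 in muscle and 7.43 and 8.07 in bone, which overlapped. On the ratio scale bone exceeded muscle by 0.59 for Actn3 and by 0.63 for Ankrd23. Counted as bone minus muscle, the differences became -0.58 and -0.15 with the Cy3 level alone, and with median centring in place of loess -0.72 and -0.35. For Tnni1 the mean Cy3 level was 4.70 in bone and 2.70 in muscle, but the muscle arrays gave 0.39 and 5.01. Muscle replicate 2 thus lay above both bone arrays, at 4.53 and 4.87, and without muscle replicate 1 the order turns. The span of Actn3 over the 15 tissues grew from 8.78 on the ratio scale to 11.93 on the Cy3 scale.

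For the tissues that had not been used to choose the genes, each was compared with the mean of brain cortex, cerebellum, liver and kidney, which have no striated muscle of their own (the comparison tissues). The 11 comparisons share these 4 tissues. A difference was called when the adjusted p of limma's moderated test, with Benjamini-Hochberg adjustment over all 21019 probes, was under 0.05 and the log2 difference was at least 1. Actn3 was called higher in 4 of 8 such tissues, Ankrd23 in 5 of 9 and Tnni1 in 4 of 9, and no gene was called lower in any. Among all probes kept, the share called higher was 14.3% in skin, 12.9% in eyes, 11.7% in bladder, 13.1% in stomach, 10.4% in fat, 11.8% in heart, 11.8% in muscle, 12.6% in bone, 15.1% in lung, 13.9% in small intestine and 14.3% in large intestine. The share called lower was 12.5% in skin, 7.02% in eyes, 11% in bladder, 11.4% in stomach, 10.3% in fat, 13% in heart, 17.5% in muscle, 13.8% in bone, 12.2% in lung, 14.3% in small intestine and 16% in large intestine.

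Skin and eyes carried all 3 genes above the comparison tissues. In skin Actn3 was higher by 6.65 ± 0.50 (SE) with an adjusted p of 2.6e-09 in limma's fit, and its difference was 5.33 or 7.98 when replicate 2 or replicate 1 was left out. In fits with an array left out, the lone array of that tissue is assumed to vary like the arrays of the other tissues. Ankrd23 was higher in skin by 4.19 ± 0.20 (SE, limma adjusted p = 7.8e-12). Tnni1 was higher in skin by 1.57 ± 0.62 (SE, limma adjusted p = 0.0419), but skin replicate 1, at 0.40, lay inside the range of the comparison arrays. That call was lost in 11 of the fits with an array left out and fell to 0.29 without skin replicate 2. It was also lost with median centring, Cy3 alone, no filter, or slide or scan day as a block.

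In the eyes the arrays of all 3 genes were above every comparison array. Actn3 was higher by 4.44 ± 0.50 (SE, limma adjusted p = 8.5e-07), Ankrd23 by 3.71 ± 0.20 (SE, limma adjusted p = 4.6e-11) and Tnni1 by 2.73 ± 0.62 (SE, limma adjusted p = 0.0015). Within the scan day that eyes shared with arrays of all 4 comparison tissues the differences were 4.46, 3.70 and 2.70. Skin shared no scan day with the comparison tissues, so for skin the day and the tissue cannot be told apart. The same holds for muscle, bone, stomach, both intestines and fat.

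Heart separated the genes. Ankrd23 was higher in heart by 6.16 ± 0.20 (SE, limma adjusted p = 1.1e-13), and by 6.15 within the shared scan day. For Tnni1 the heart difference was -0.39, with a 95% interval from -1.69 to 0.90 (limma adjusted p = 0.66). For Actn3, where heart was used in the choice, the heart mean lay 0.17 above the comparison tissues and the arrays overlapped. Bone and muscle were both called for Tnni1, by 4.76 ± 0.62 (SE, limma adjusted p = 3.6e-06) and 3.10 ± 0.62 (SE, limma adjusted p = 0.000328). The muscle call rested on replicate 2, since without it the difference was 1.43 and no longer passed.

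The hollow organs and fat gave smaller differences. In bladder Actn3 was higher by 2.17 ± 0.50 (SE, limma adjusted p = 0.0015) and Ankrd23 by 1.63 ± 0.20 (SE, limma adjusted p = 2.8e-06), and both bladder arrays exceeded every comparison array for both genes. The 2 bladder arrays differed for Actn3, and without replicate 1 the difference was 1.21 and no longer passed. In stomach Ankrd23 was higher by 1.05 ± 0.20 (SE, limma adjusted p = 0.000333), close to the minimum size, and was 0.77 without stomach replicate 1. It also lay under 1 with median centring, Cy3 alone, lung added to the comparison tissues, or slide or scan day as a block. In fat Actn3 was higher by 1.49 ± 0.50 (SE, limma adjusted p = 0.0216), and this was lost without fat replicate 2, with median centring and with slide or scan day as a block. With slide as a block the bladder call of Actn3 was lost too, although bladder minus kidney within their shared slide was 2.32. In lung Ankrd23 was higher by 0.87 ± 0.20 (SE, limma adjusted p = 0.0016), under the minimum size, with both arrays above every comparison array.

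For the remaining tissues no difference passed. Actn3 differed from the comparison tissues by 0.54 in stomach, 0.29 in large intestine, 0.04 in small intestine and -0.29 in lung, with 95% intervals that all included 0. Ankrd23 differed by 0.33 in fat, -0.14 in large intestine and -0.46 in small intestine, the last with a 95% interval from -0.89 to -0.03 (limma adjusted p = 0.0722). Tnni1 differed by -0.67 in stomach, -0.88 in bladder, -1.13 in fat and -1.28 in lung, the last with a 95% interval from -2.57 to 0.02 (limma adjusted p = 0.0969). Both lung arrays lay below every comparison array, and the lung difference passed as lower when muscle replicate 1 or muscle replicate 2 was left out (limma adjusted p = 0.0249 in each fit). With the processed signals Tnni1 also passed as lower in lung, by -1.58, and in fat, by -1.71, and the authors' table gave the same values.

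**Figure D3:**
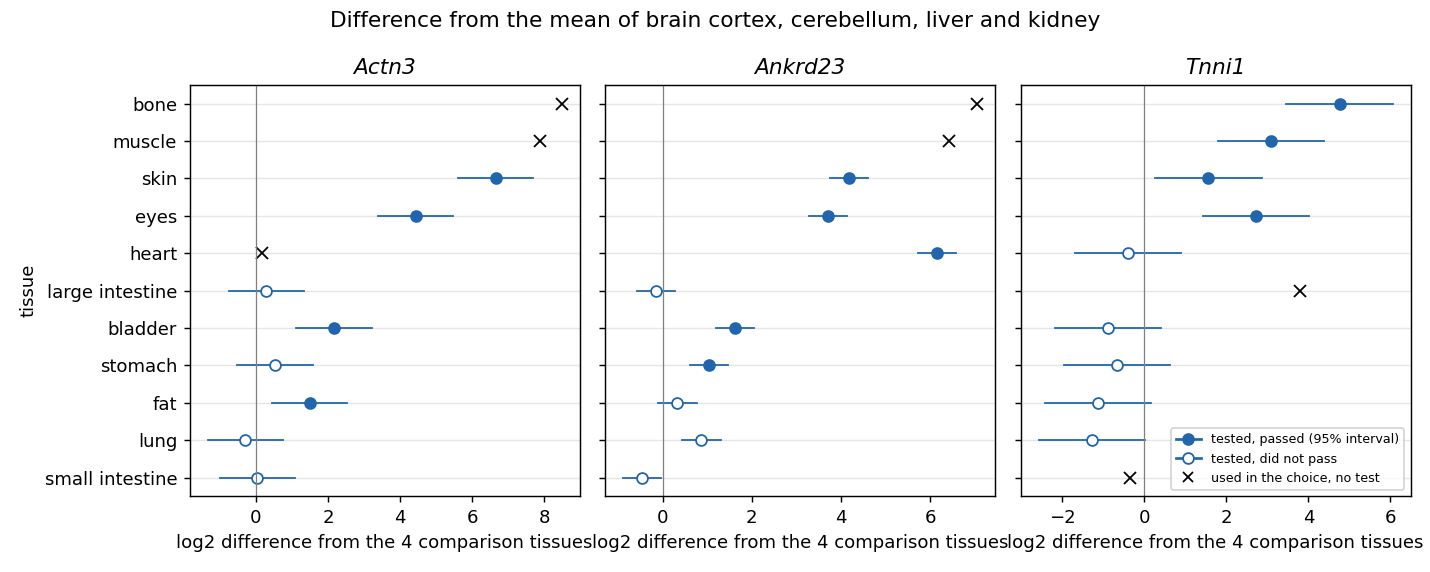
Points give the log2 difference of each tissue on the vertical axis from the mean of 4 comparison tissues on the horizontal axis, with 95% intervals from limma where a test was made and crosses without intervals where the contrast was used to choose the gene. Filled points passed the test, and for Actn3 these are skin at 6.65, eyes at 4.44, bladder at 2.17 and fat at 1.49.

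Heart and skeletal muscle were compared directly as the 2 kinds of striated muscle. For Ankrd23, whose muscle values were used in the choice, heart minus muscle was -0.27 on the ratio scale and -1.22 with the Cy3 level alone, given as a description. The arrays did not overlap on the ratio scale. For Tnni1 heart minus muscle was -3.49 ± 0.78 (SE, limma adjusted p = 0.0025), in a contrast where 6.02% of all probes kept were called lower and 9.18% higher. Both heart arrays lay below each muscle array, but the difference was -1.82 without muscle replicate 2, which did not pass, and -5.15 without muscle replicate 1. For Actn3 it was -7.72, given as a description. Heart and muscle shared no slide or scan day, and neither did bone and muscle.

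Bone against muscle was tested for Tnni1 only. Bone was 1.67 ± 0.78 (SE) above muscle with a 95% interval from 0.03 to 3.30, which did not pass (limma adjusted p = 0.12). The difference was 3.33 without muscle replicate 2 and 0.0041 without muscle replicate 1. Of all probes kept, 11.3% were called higher in bone than in muscle and 8.2% lower.

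Between the intestines, Tnni1 was lower in the small than in the large intestine, with a difference of -4.16, for which it was chosen. Its Cy3 signal was 1955 and 8500 on the large intestine arrays, against a mean of 187 on the small intestine arrays. On the 1 slide that held an array of each, the difference was -3.34. For Actn3 the small minus large difference was -0.25, with a 95% interval from -1.57 to 1.08 (limma adjusted p = 0.88). For Ankrd23 it was -0.31, with a 95% interval from -0.86 to 0.23 (limma adjusted p = 0.47). In this comparison 6.33% of all probes were called higher and 5.04% lower. The smooth muscle genes Lmod1, a nucleator of actin filaments, and Synpo2, an actin-binding protein, were at 2.54 and 1.85 in large intestine and at 1.62 and 1.25 in small intestine.

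Agreement between the 2 arrays of a tissue differed between the genes. In muscle, Tnni1 was 3.32 higher on replicate 2 than on replicate 1, with a Cy3 signal 22.7-fold that of replicate 1. Only 7 of 21008 probes had a larger absolute difference between these arrays, and the median over all probes was 0.11. Actn3 differed by 0.05 and Ankrd23 by 0.14 between the same arrays. Among named probes the next largest rise was 2.05 for Slc25a25, a mitochondrial carrier, and the largest falls were -3.46 for Fmod, a collagen-binding proteoglycan, and -2.51 for En1, a homeobox factor. Of the fast fibre genes, Myl1 gave 3.54 and 3.72 and Prkag3 3.58 and 3.69 on the 2 muscle arrays. No other gene of the slow fibre list had a named probe, so the slow programme could not be followed beyond Tnni1.

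In skin all 3 genes had a higher ratio on replicate 2, by 2.65 for Actn3, 0.86 for Ankrd23 and 2.55 for Tnni1. For Actn3 and Tnni1 only 0.224% and 0.243% of all probes differed more. The epidermal keratin Krt10 was at 5.54 and 5.34 on the same arrays. Other muscle genes were not all uneven there. Myoz3, a Z disc protein of fast fibres, gave 4.18 and 4.29, and Actn2, the alpha-actinin of cardiac and all skeletal fibres, gave 4.78 and 4.79. Their Cy3 signals did differ, from 3308 to 9972 for Myoz3 and from 15730 to 37420 for Actn2. Mstn, an inhibitor of muscle growth, gave 2.92 and 6.62, and Mybph, a thick filament protein, 2.32 and 4.42.

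Smaller differences between replicates were seen elsewhere. In bladder Actn3 had a replicate 2 minus replicate 1 difference of -1.93 and only 0.419% of probes differed more, while Tnni1 differed by 0.03. In stomach all 3 genes were higher on replicate 1, with replicate 2 minus replicate 1 at -1.36 for Actn3, -0.55 for Ankrd23 and -0.87 for Tnni1. In large intestine Tnni1 was 1.42 higher on replicate 2, with 12.7% of probes differing more. In bone the 3 differences were -0.06, 0.19 and -0.17, below the median of 0.29 over all probes. It is uncertain that the bone arrays stand for different animals.

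**Figure D4:**
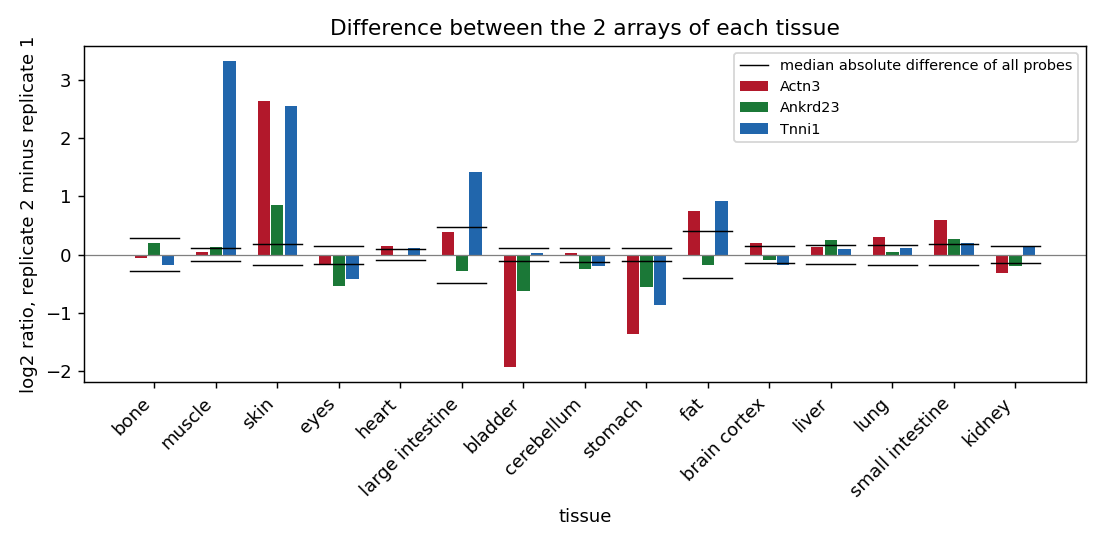
Bars give the log2 ratio of replicate 2 minus that of replicate 1 for each gene on the vertical axis, by tissue on the horizontal axis, and the black lines mark the median absolute difference of all probes in that tissue, on either side of 0. The largest bars are Tnni1 in muscle at 3.32, Actn3 in skin at 2.65 and Tnni1 in skin at 2.55.

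Other genes of the sarcomere, its Z disc and excitation-contraction coupling were taken from 4 lists of 81 genes in all, which were written with results of these arrays known. Only 12 had a named probe past the filter, 3 of them the genes described above and 9 others. Against the comparison tissues, 8 of the 9 rose in muscle and 1 fell, with a median difference of 4.10 against -0.07 over all probes, of which 11.8% were called higher and 17.5% lower. In bone 7 rose (median 3.99), beside 12.6% of all probes, in skin 8 (median 3.85), beside 14.3%, and in heart 6 (median 2.78), beside 11.8%. In eyes 5 rose and 1 fell (median 1.91), beside 12.9% and 7.02% of all probes. In bladder and stomach 6 rose in each (medians 1.25 and 1.20), beside 11.7% and 13.1%. These counts rested on single arrays, since 3 rose without bladder replicate 1 and 2 without stomach replicate 1, where Myoz3, Myl1 and Actn2 no longer passed in either tissue. Large intestine had 5 that rose, beside 14.3% of all probes, and 3 without its replicate 2. With median centring 3 rose in stomach and 3 in large intestine. Small intestine, lung and fat had 3 each, beside 13.9%, 15.1% and 10.4%. In each intestine 6 rose and 2 fell with the processed signals, and 5 rose and 2 fell with Cy3 alone. Under either of these settings 5 rose and 1 fell in stomach, 4 rose and 1 fell in lung, and 2 rose in fat. Myl1 and Myoz3 were not well above background on any of the 8 comparison arrays, so their differences in these counts are bounds.

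Of the Z disc genes other than the members, Myoz3 and Fhl2 differed between heart and muscle, while Actn2 and Des did not pass the test. Actn2 was at 4.21 in muscle and 4.88 in heart, beside 4.90 and -2.83 for Actn3. Myoz3 was at 4.24 in muscle, and in heart, at -0.10, it was not well above background on either array. On the Cy3 channel alone, with the lowest signal well above background as a floor, Myoz3 was at least 680-fold higher in muscle (limma adjusted p = 8e-06 for the ratio). This bound is not divided by the reference, so it rests on the scaling between arrays. The p belongs to the ratio, on which heart minus muscle was smaller, at -4.34 on the log2 scale. Fhl2, a LIM protein of cardiac muscle, was at -3.28 in muscle and 6.18 in heart, and was the gene called lower in muscle and in eyes. The muscle call rested on replicate 1, without which the difference from the comparison tissues was -0.92 and did not pass. Des, the intermediate filament desmin of all muscle, was at 3.09 in muscle, 2.84 in heart and 2.75 in large intestine.

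Heart and muscle also differed in genes of the filaments and of excitation-contraction coupling. Of the 9 genes, heart was lower than muscle for 5 (Mybph, Myl1, Myoz3, Cacna1s and Jph1) and higher for 2, Fhl2 and Tnnt2, beside 6.02% and 9.18% of all probes kept. Mybph was not well above background on either heart array and was at least 174-fold higher in muscle by the same bound (limma adjusted p = 8.5e-07 for the ratio). Tnnt2, the cardiac troponin T, was at 3.98 in heart and 0.10 in muscle. Cacna1s, the voltage sensor of skeletal muscle, was at 4.39 in muscle and 1.53 in heart, and Jph1, which joins surface and store membranes, at 4.75 and 0.92. Myl1, a fast myosin light chain, was at 3.63 and 2.24, and this call was lost in 20 of 30 fits with an array left out. Heart minus muscle for Myl1 was 0.51 with the processed signals, which did not pass, and -8.92 with the Cy3 level alone, where muscle was at 7.51, heart at -1.41, bone at 5.96 and skin at 3.91. On the ratio scale the bone arrays, at 4.52 and 4.27, and the skin arrays, at 4.16 and 4.33, lay above both muscle arrays for Myl1.

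Between bone and muscle 1 of the 9 genes was called higher in bone and 2 were called lower, beside 11.3% and 8.2% of all probes kept. Mybph and Jph1 were lower in bone than in muscle, with differences of -2.08 and -2.88, and Fhl2 was higher by 2.73. With 1 bone or muscle array left out, Jph1 ranged from -3.55 to -2.21 and Fhl2 from 1.87 to 3.58. The Mybph difference was -0.99 without bone replicate 2 and -0.87 with the processed signals, and neither passed. It also did not pass without muscle replicate 2, at -1.99. The other 6 did not pass the test in either direction, which does not show that they were alike. The muscle regulators Mstn and Myog, the differentiation factor myogenin, were lower in bone as well, with differences of -3.62 and -1.59. Prkag3, a muscle subunit of the energy sensor AMPK from the fast fibre list, also differed by -1.59. The call of Myog was lost without bone replicate 2 or muscle replicate 2, and with the processed signals none of these 3 passed (Mstn -1.44, Myog -1.67, Prkag3 -0.54). Of the genes of bone itself, Acp5, the acid phosphatase of osteoclasts, was at 3.58 in bone, -0.18 in muscle and 3.60 in large intestine. The part of muscle tissue in the bone samples was not tested.

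The alpha-actinins that are not tied to muscle were lowest in muscle on the ratio scale. Actn1, the alpha-actinin of adhesions, was at -3.06 in muscle and 1.95 in bladder. Actn4, which also serves cells outside muscle, was at -2.35 in muscle and 1.73 in small intestine. Both were called lower in muscle than in the comparison tissues, beside 17.5% of all probes.

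**Figure D5:**
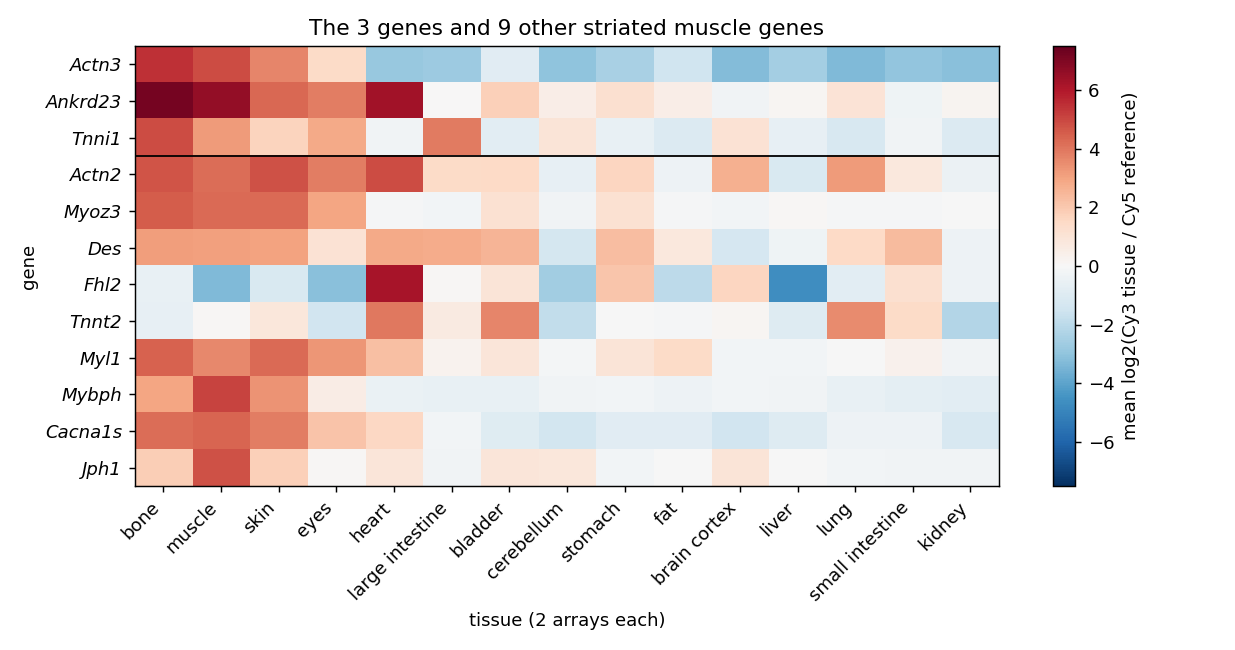
Colours give the mean log2 ratio of 2 arrays to the common reference for 12 genes on the vertical axis in 15 tissues on the horizontal axis, with the 3 genes above the line and 9 others of the striated muscle lists below it. Bone, muscle and skin are red for most genes, and along their own rows Fhl2 reaches 6.18 in heart against -3.28 in muscle while Actn3 is at -2.83 in heart and 4.90 in muscle.

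The genes most like each member were found among all named probes by Pearson's r over the 15 tissue means, given as a description since tissues share the reference and the arrays. For Actn3 they were Myoz3 (r = 0.98, listed as 4833419K08Rik), Mettl21c (0.94, listed as A530098C11Rik), Myog (0.93), Mybph (0.92) and Mstn (0.92). All 5 were highest in muscle or bone, and Mettl21c was at 7.87 in muscle, 5.53 in bone and 0.01 in heart, where 1 of 2 arrays was well above background. For Ankrd23 they were 2310002L09Rik (0.97), Cavin4 (0.96, listed as 2310039E09Rik), Dusp27 (0.92), 2310040G24Rik (0.92) and Perm1 (0.91, listed as 2310042D19Rik). Cavin4, a caveolar protein of muscle, was at 5.46 in muscle, 5.23 in heart and 3.98 in bone. Perm1, a regulator of muscle mitochondria, was at 5.27 in muscle and 5.79 in heart.

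Tnni1 had no close match over the 15 tissue means. Its muscle and skin means each average 2 distant arrays (SD 2.35 and 1.80), and their effect on r was not tested. Its nearest named probes were Rpa2 (r = 0.79), Nos1 (0.78, listed as 2310005C01Rik), Edc4 (0.77), 4930579G24Rik (0.76) and Bpgm (0.75), of which Rpa2, Nos1, Edc4 and Bpgm encode no sarcomere protein. Rpa2, a subunit of a single-strand DNA-binding complex, only ranged from -2.52 in kidney to 0.00 in bone. Nos1, the neuronal nitric oxide synthase, which muscle also makes, was at 2.56 in muscle, 2.37 in cerebellum and 1.04 in large intestine. Of 21018 other probes, 10 had an r above 0.95 with Actn3, 21 with Ankrd23 and none with Tnni1, for which the highest was 0.85. Between the members r over the 15 tissue means was 0.80 for Actn3 and Ankrd23, 0.69 for Actn3 and Tnni1 and 0.54 for Ankrd23 and Tnni1.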

How the data were processed

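Gene expression was measured in 15 tissues of adult mice on 30 two-colour Agilent arrays, 2 per tissue, with tissue RNA in Cy3 and a common reference in Cy5. The spots were extracted by the authors with Feature Extraction 9.5.1.1, per the file headers, and the deposited files hold mean, background and processed signals of both channels as intensity in scanner units, with flags for outliers, saturation and signal above background. The authors' deposited value table is on a log10 scale, with its procedure not given in the sources used here. Regression of the table on the scanner files over 8987 bright probes gave slopes of 0.999 for the log10 processed Cy3 signal and -0.998 for how far Cy5 deviated from its own mean, so it is a Cy3 level adjusted for the reference.

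Here mean signals were corrected by normexp (offset 50) in limma 3.58.1 under R 4.3.3, outlier and control spots were removed (475 outlier spots, 0.0377%), and arrays were normalised by loess. Probes flagged above background in Cy3 by both arrays of some tissue were retained, 21019 of 25030. A linear model with 1 mean per tissue was fitted to log2(Cy3/Cy5) of all 30 arrays (15 residual degrees of freedom), with empirical Bayes moderation and Benjamini-Hochberg adjustment within each contrast. The fit was tested on simulated data. For probes not well above background in a tissue, bounds were set on the Cy3 channel after loess and Aquantile normalisation. P-values measure the spread between the 2 arrays of a tissue, pooled for each probe over all 15 tissues, and the number of arrays limits the precision. The spread within a given tissue can thus be larger or smaller than its SE implies. For Tnni1 the SE against the comparison tissues was 0.62 in every tissue tested, while the SD was 2.35 in muscle and 0.08 in lung. Leaving out a muscle array also takes the muscle spread out of the pooled estimate. Replicate numbers did not pair the arrays. There were 11 slides and 5 scan days.

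The genes and the gene lists were chosen with earlier results of these data known. Named genes were the 3 members, the genes of the muscle lists with a named probe, and for each member the 5 named probes with the highest Pearson r over the 15 tissue means. Lists covered the thin filament, thick filament and M band, Z disc and titin, excitation-contraction coupling, fast and slow fibres, heart, muscle regulators, smooth muscle, alpha-actinins outside muscle, bone, marrow, skin and fat. The marrow and fat lists had no named probe, and part of the bone list is not reported here. Symbols came from the study's probe lists, which cover part of the array, and older symbols were updated through RefSeq. Alternatives were the processed signals, median centring, the Cy3 level alone, the authors' table, other filters and probe sets, slide, scan day or replicate number as a block, other comparison tissues and leaving out each array.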

Additional observations from a re-analysis of the deposited data

How the results depend on the processing

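Of 1718 values recomputed under an alternative, 1637 were counted as unchanged. A tested difference counted so when its call stayed, and a difference called in neither fit could still change direction. Untested values had to move by less than the spread between replicates, and counts of called tissues could change by a small factor. Leaving out 1 array gave 1230 of the values, and most arrays belong to neither side of a contrast, whose difference then cannot change. For the 3 genes the processed signals and the authors' table gave nearly the same differences. The share unchanged was partly fixed in advance. Scan day as a block, and the alternatives for the other muscle genes, were chosen after seeing the data. Bone minus muscle reversed for Actn3 to -0.72 after median centring and -0.58 from Cy3 alone, and for Ankrd23 to -0.35 and -0.15. Heart minus muscle for Actn3 was -8.86 with the processed signals and with the authors' table and -11.39 with Cy3 alone. For Ankrd23, as a description, it was -1.22 with Cy3 alone. Small minus large intestine for Tnni1 was -5.21 with Cy3 alone. Actn3 was called higher in 2 tissues with slide as a block. Against the mean of all other 14 tissues, which include muscle and bone, Actn3 was called in 2 tissues and Ankrd23 in 3. Differences that reversed against that mean were, for Actn3, stomach at -1.70, small intestine at -2.23, large intestine at -1.96 and fat at -0.68, and for Ankrd23, lung at -1.27, bladder at -0.46, stomach at -1.08 and fat at -1.85. Information for Actn3 was 2.29 bits with the processed signals and with the authors' table and 2.64 with Cy3 alone. For Ankrd23 it was 1.74 bits with either of the former, 1.59 with median centring and 1.97 with Cy3 alone, and for Tnni1 1.40, 0.95 and 1.74. The cause of these shifts was not tested.

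With an array left out, heart minus muscle for Tnni1 ranged from -5.15 to -1.82 and bone minus muscle from 0.0041 to 3.33, the extremes being the fits without muscle replicate 1 or 2. The information of Actn3 ranged from 2.05 to 2.28 bits and that of Tnni1 from 1.18 to 1.35. Median centring moved the share of higher calls among all calls from 47.8% to 29.2% in bone, from 53.2% to 32.3% in skin and from 47.6% to 33.2% in heart, and the median of all probes in bone to -0.20. Fits with the replicate number as a block, in which the pairing of tissues was weak (median r 0.05 over 105 pairs of tissues, 33 above 0.1), changed no call of the 3 genes, with 4 tissues called for Actn3, 5 for Ankrd23 and 4 for Tnni1. The 2 arrays per tissue limit all intervals, and for bone and fat it is uncertain that they stand for 2 animals.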
